A study of Mus musculus with 4 samples.

Results

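A set of 422 CpG sites whose methylation was lower in Chr4-cl KO than in WT ES cells grown in serum was examined. The sites were selected on the serum values themselves: a position had to be listed once in each library, be covered by at least 10 reads in both serum libraries, and have a methylated share of reads at least 40 percentage points lower in the KO library. Of 588613 sites with that coverage, 422 met the rule (0.0717%), or 0.196% of the 214776 sites that were at least 40% methylated in WT serum and so could meet it. In the opposite direction 3828 sites, or 0.65%, were higher in KO serum by at least 40 points, and the median site was 1.24 points higher in KO serum. Chr4-cl is a cluster of KRAB zinc finger protein genes on mouse chromosome 4 that was removed in the KO line by CRISPR/Cas9. Mouse ES cells are cultured pluripotent cells, and these came from mice of a mixed B6;129 background with a cre/ERT allele at Gt(ROSA)26Sor, so both genotypes carry a tamoxifen-inducible Cre. WT and KO cells were grown either in medium with fetal calf serum or for a week in 2i + Vitamin C, a medium with inhibitors that keep the cells in a naive state and a vitamin that promotes loss of methylation. Lines were single clones picked after transfection. Each of the 4 combinations had 1 library, and the libraries of a genotype carried the same line number in both media, so the effect of the deletion and a difference between 2 clones cannot be told apart.

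Methylation of CpG sites is copied to new DNA strands at each division, and KRAB zinc finger proteins recruit the corepressor KAP1 to particular sequences, many of them in transposable elements. At imprinted genes, methylation laid down in one parent's germline marks a control region on that parent's allele, and it persists in the embryo through binding of factors such as the KRAB zinc finger protein ZFP57 to the methylated sequence. A control region that keeps its mark is therefore methylated on about one allele in ES cells, while transposable elements and most intergenic DNA are methylated on both. ETn elements are retrotransposons without coding genes of their own, and RLTR4 elements are related to murine leukemia viruses.

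The sequences below show member-rich stretches outside annotated untranslated regions of mRNAs, chosen because the results turn on these loci. They are 4 from imprinted genes, a coding exon, the promoter of 1810058I24Rik, an ETn insertion and a promoter whose direction differed between media. They are the mm9 plus strand, 5′ to 3′, and capitals mark the CG of each member site.
Grb10, chr11:11925623-11925815, 10 member sites: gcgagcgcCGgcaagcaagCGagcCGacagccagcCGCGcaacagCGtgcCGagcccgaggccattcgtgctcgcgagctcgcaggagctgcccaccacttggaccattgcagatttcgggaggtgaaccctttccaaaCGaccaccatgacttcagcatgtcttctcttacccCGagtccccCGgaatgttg
Inpp5f, chr7:135831597-135831783, 8 member sites: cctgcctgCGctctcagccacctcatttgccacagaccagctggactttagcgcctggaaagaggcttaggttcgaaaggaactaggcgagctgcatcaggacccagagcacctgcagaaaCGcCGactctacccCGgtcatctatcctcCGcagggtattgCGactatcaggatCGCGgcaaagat
Airn, chr17:12934448-12934615, 6 member sites: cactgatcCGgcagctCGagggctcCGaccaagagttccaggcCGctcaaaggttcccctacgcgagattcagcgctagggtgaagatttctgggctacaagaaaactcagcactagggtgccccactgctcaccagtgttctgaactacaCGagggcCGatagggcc
Meg3, chr12:110779121-110779289, 5 member sites: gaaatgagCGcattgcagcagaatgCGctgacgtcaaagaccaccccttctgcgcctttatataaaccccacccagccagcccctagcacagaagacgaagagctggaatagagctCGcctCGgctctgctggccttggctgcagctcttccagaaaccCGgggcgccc
Zfp777, chr6:47974807-47974958, 4 member sites: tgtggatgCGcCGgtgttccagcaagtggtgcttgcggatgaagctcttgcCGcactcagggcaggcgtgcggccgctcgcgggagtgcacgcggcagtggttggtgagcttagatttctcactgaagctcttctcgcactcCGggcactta
1810058I24Rik, chr6:35202741-35202839, 7 member sites: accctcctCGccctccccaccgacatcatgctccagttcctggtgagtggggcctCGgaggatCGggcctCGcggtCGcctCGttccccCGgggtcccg
ETn in 2310016D23Rik, chr1:60848264-60848354, 6 member sites: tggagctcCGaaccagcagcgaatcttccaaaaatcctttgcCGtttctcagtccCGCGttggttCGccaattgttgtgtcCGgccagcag
Ccdc107, chr4:43505760-43505796, 3 member sites: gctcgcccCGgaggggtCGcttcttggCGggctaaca

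Lower-case cg pairs in these stretches are sites that were not members or were not covered. Members within 1000 bp of each other were joined into 225 loci. Of these, 161 held 1 member, 25 held 2 and 39 held at least 3. The 39 loci contained 211 members, 50% of the total, and the longest, at Grb10, spanned 1254 bp with 35 members.

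Across all members the median methylation was 74.1% in WT serum and 20% in KO serum, and the median difference was -47.8 points. The largest was -96.3 points, and 11 sites were lower by at least 80 points. These values chose the sites and were not tested. Just inside the rule, sites on chromosomes 5, 4 and 6 went from 80% to 40%, from 100% to 60% and from 70% to 30%, each on 10 to 12 reads per library. Just outside it were 2 sites within the Grb10 and Inpp5f loci, at 43.6% and 3.90% and at 40.7% and 0.806%, and a site on chromosome 11 at 75% and 35.3%. Coverage of the members was lower than of sites in general, with a median of 28 reads in WT serum and 23 in KO serum against 48 and 61 over all tested sites. In at least one serum library 217 members (51.4%) had under 20 reads, compared with 24.4% of all tested sites. The 161 single-member loci had medians of 16 and 15 reads. The part of read sampling in the selection of these shallow sites was not tested.

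By annotation (GENCODE vM1), 161 members were intergenic, 111 lay in promoters (1000 bp upstream to 500 bp downstream of a transcription start), 96 in introns and 54 in exons. Promoters held 26.3% of the members, 46.4% of all tested sites and 6.61% of the sites at least 40% methylated in WT serum. Of the 111 promoter members, 50 were not near a gene of the imprinted list. Chromosome 11 had the most members, 67, of which 35 were the Grb10 locus, and also the most tested sites. As a share of tested sites, members were 0.139% on chromosome 11, 0.137% on chromosome 6, 0.118% on chromosome 18 and 0.104% on chromosome X, against 0.0717% in all, and the lowest autosomal share was 0.0276% on chromosome 3. None lay in the deleted cluster on chromosome 4, where the libraries had 9659 (WT serum), 429 (KO serum), 8913 (WT 2i + Vitamin C) and 334 (KO 2i + Vitamin C) reads over CpG sites. The promoters of Pou5f1 and Sall4, both active in ES cells, averaged 3.95% and 10.2% methylation in WT serum and 0.426% and 18.6% in KO serum, at 5 and 44 sites. Nanog and Lin28a had no tested promoter site.

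**Figure D1:**
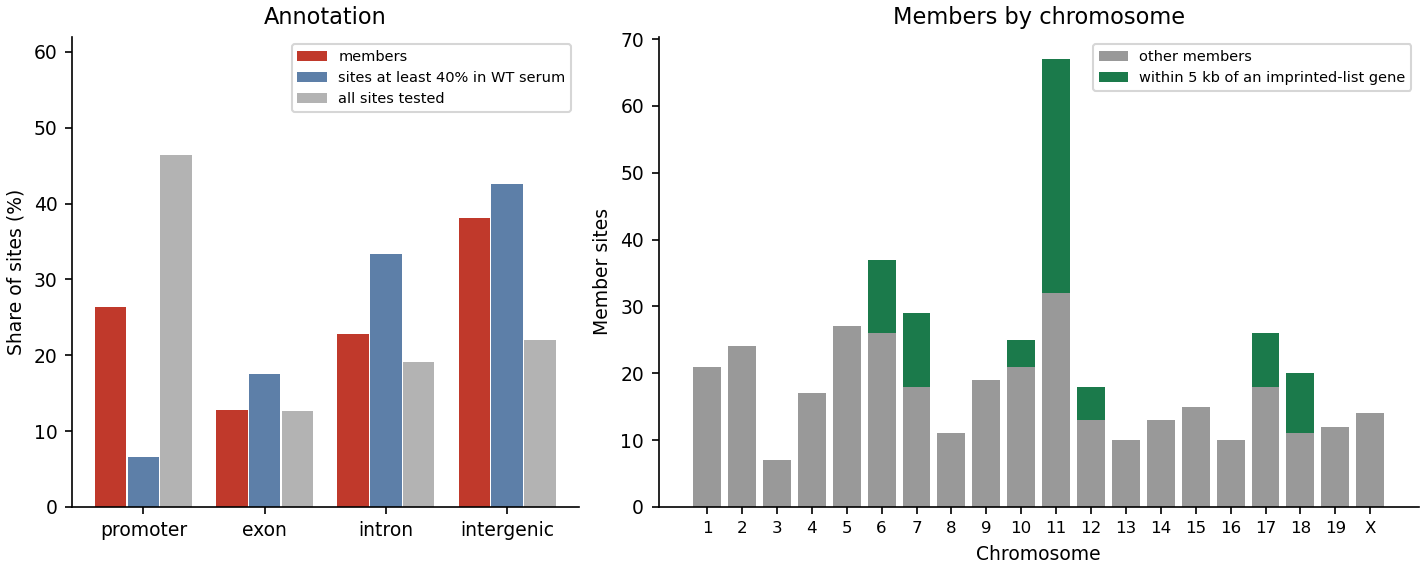
Left, share of CpG sites (%) in each annotation class for the 422 members, the 214776 sites at least 40% methylated in WT serum and all 588613 tested sites. Right, number of members on each chromosome, with those within 5 kb of a gene of the imprinted list in green. The green part of chromosome 11 is the 35 sites of Grb10.

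Members fell into several kinds by their serum levels, with limits chosen after the values were seen. The first kind, 128 sites, was under 70% in WT and at most 10% in KO serum, with medians of 51.2% and 3.14%. The largest kind, 216 sites, started at 70% or more and kept over 10% in KO serum, with medians of 90% and 37.7%. A further 20 sites went from at least 70% to at most 10%, and 58 went from under 70% to over 10%. Among the 39 loci of at least 3 members, 13 had pooled WT values between 40% and 60%, and 11 of these were at most 10% in KO serum. Of the 24 loci at 70% or more in WT, 2 were at most 10% in KO serum. The rule itself requires low KO values where WT is near 50% and allows higher ones where WT is high, so nothing is read from this contrast.

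Of 58 genes in the imprinted list, 51 were annotated, 40 had a tested site at least 40% methylated in WT serum within the gene or 5000 bp of it, and 10 had members. In all 83 members at 8 loci lay at these genes, 13.3% of their 625 such sites. The list was chosen with earlier results of these data known, and the serum values behind this share also chose the members. At Grb10 alone lay 35 of the 83, so the share is a description and not a test. Among lists with other functions with a share of 0.196% over all such sites, there were 0 members at germline genes (308 such sites), 0 at pluripotency genes (53) and 0 at DNA methylation machinery genes (172), too few sites to set these counts apart from that share. The 83 sites had median values of 52.4% in WT and 3.50% in KO serum on medians of 118 and 139 reads. Leaving out the single site in Kcnq1, the 7 loci ranged from 44.3% to 57.9% in WT serum and from 0% to 6.81% in KO serum.

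**Figure D2:**
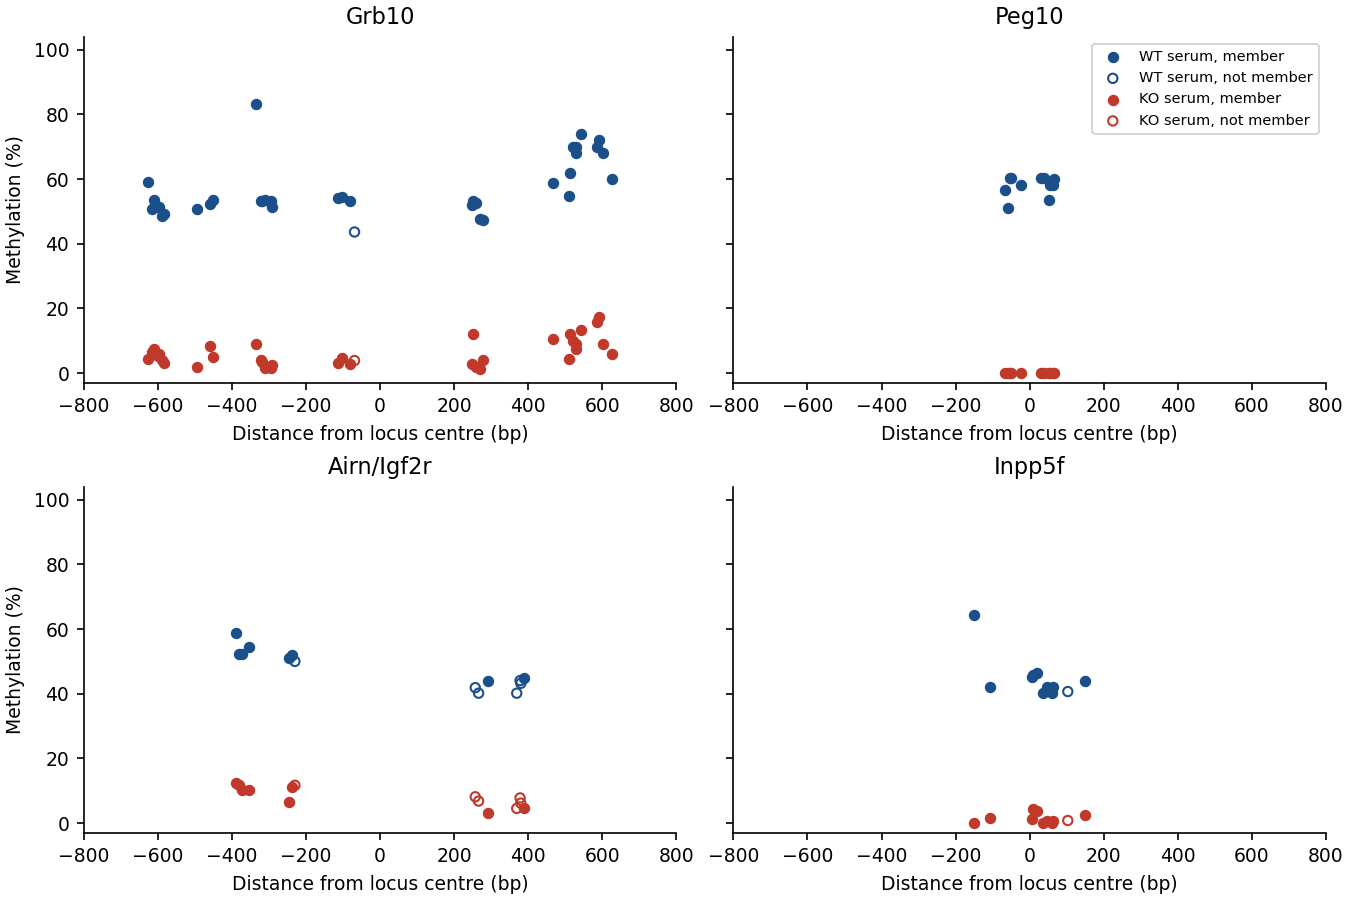
Methylation (%) of each tested CpG site against distance from the locus centre (bp) at Grb10, Peg10, Airn/Igf2r and Inpp5f, in WT serum (blue) and KO serum (red). Filled points are members and open points are other tested sites. All sites of these 4 loci lie near or above 40% in WT serum, and no KO site is above 20%.

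Grb10 encodes an adaptor that restrains insulin and insulin-like growth factor signalling. Its locus, chr11:11925631-11926884, covered a transcription start, a 5′ untranslated exon and the adjoining intron, and 35 of its 36 tested sites were members. Pooled over members, 53.6% of 8333 reads were methylated in WT serum (95% Wilson interval 52.5 to 54.6) and 5.34% of 10094 in KO serum (4.92 to 5.80). In 2i + Vitamin C the values were 23.5% of 9766 reads in WT (22.7 to 24.4) and 1.86% of 591 in KO cells (1.04 to 3.30). A read that covers several sites is counted at each, so the intervals of pooled reads are too narrow, their p-values are too small, and both cover counting error only. The KO library was lower by 21.7 points in 2i + Vitamin C (adjusted p = 2.13e-49, Fisher's exact test between the 2 libraries with Benjamini-Hochberg adjustment over 31 loci).

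Peg10, a gene derived from a retrotransposon that is needed in the placenta, shares its promoter region with Sgce. At its 11 members, chr6:4697355-4697490, every tested site was a member and the KO serum value was 0 at each of them. The pooled level was 57.9% of 432 reads in WT serum and 0% of 456 in KO serum (upper bound 0.835%), then 20.7% of 747 and 0.753% of 531 reads in 2i + Vitamin C. Airn is the noncoding RNA transcribed antisense to Igf2r, the receptor that clears insulin-like growth factor 2, and its locus chr17:12934456-12935234 lay at the Airn promoter inside an Igf2r intron. Its 8 members had 50.3% and 6.81% in serum (783 and 1175 reads) and 30.6% and 1.90% in 2i + Vitamin C (974 and 630 reads). Both loci were lower in the KO library in 2i + Vitamin C, by 20.0 points at Peg10 (adjusted p = 3.37e-33) and 28.7 points at Airn (adjusted p = 4.12e-56, Fisher's exact test).

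Inpp5f encodes a phosphoinositide phosphatase, and its 10 members, chr7:135831562-135831861, lay centred 292 bp upstream of an annotated start. They went from 44.3% to 1.67% in serum and stood at 25.8% (1062 reads) and 5.32% (94 reads) in 2i + Vitamin C. Impact encodes a regulator of translation under amino acid stress. Its 9 members in an intron, chr18:13131649-13131922, went from 47.1% to 1.78% in serum and stood at 25.6% and 1.79% in 2i + Vitamin C. The differences in 2i + Vitamin C, -20.5 points at Inpp5f and -23.8 points at Impact, passed the test on pooled reads (adjusted p = 1.85e-06 and 9.08e-65, Fisher's exact test). With only the best covered member of each locus, the adjusted p was 0.269 at Inpp5f (16 KO reads) and 1.68e-15 at Impact.

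Plagl1 encodes a zinc finger transcription factor, and its 4 members at the promoter, chr10:12810429-12810620, went from 44.7% to 2.09% in serum and stood at 19.6% and 0% (83 reads) in 2i + Vitamin C. Meg3 is a noncoding RNA of the Dlk1 cluster, and its 5 members around the start, chr12:110779129-110779281, went from 49.1% to 4.37% in serum. In 2i + Vitamin C they had 28.4% in WT, but in KO cells each site had only 2 or 3 reads, none methylated, and no call is made from them. Kcnq1, a potassium channel gene, had 1 member in an intron, chr7:150481374-150481375, at 65.1% and 20.5% in serum, and in 2i + Vitamin C 40.4% and 29.5%, and the interval of that last difference, -28.5 to 8.26 points, included 0.

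At 30 other imprinted genes the sites at least 40% methylated in WT serum had no member. Their pooled KO serum value was within 10 points of WT at 22 genes, at least 10 points lower at 3 and at least 10 points higher at 5. Examples chosen after the values were seen were 56.7% and 61.1% at Mest, 65% and 68.8% at Nnat, 49.8% and 51.1% at Nespas, and 92.9% and 91.2% at Peg3. Of the 3 genes that were lower, Kcnk9 had 65.8% in WT and 33.3% in KO serum, at 1 such site. Snrpn had 46.8% and 36.7%, and Trappc9 92.9% and 81.0%. In 2i + Vitamin C, 26 of these genes had at least 10 KO reads, and KO was within 10 points of WT at 18, lower by at least 10 at 5 and higher by at least 10 at 3. The pairs were 36.9% and 36.7% at Mest, 34.1% and 40.8% at Nnat and 28.6% and 39.9% at Nespas, and in the other direction 61.7% and 39.2% at Trappc9, 51.3% and 31.4% at Igf2 and 24.8% and 11.2% at Rian. These values pool every such site of a gene, whereas the loci above were described by members alone. Pooled the same way, WT and KO serum values of genes with members differed widely. They were 53.3% and 6.09% at Grb10, 67.0% and 30.1% at Impact, 85.1% and 71.2% at Peg10 and 76.7% and 72.5% at Kcnq1. Such sites need not lie in a control region, so no split between genes is read from them.

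**Figure D3:**
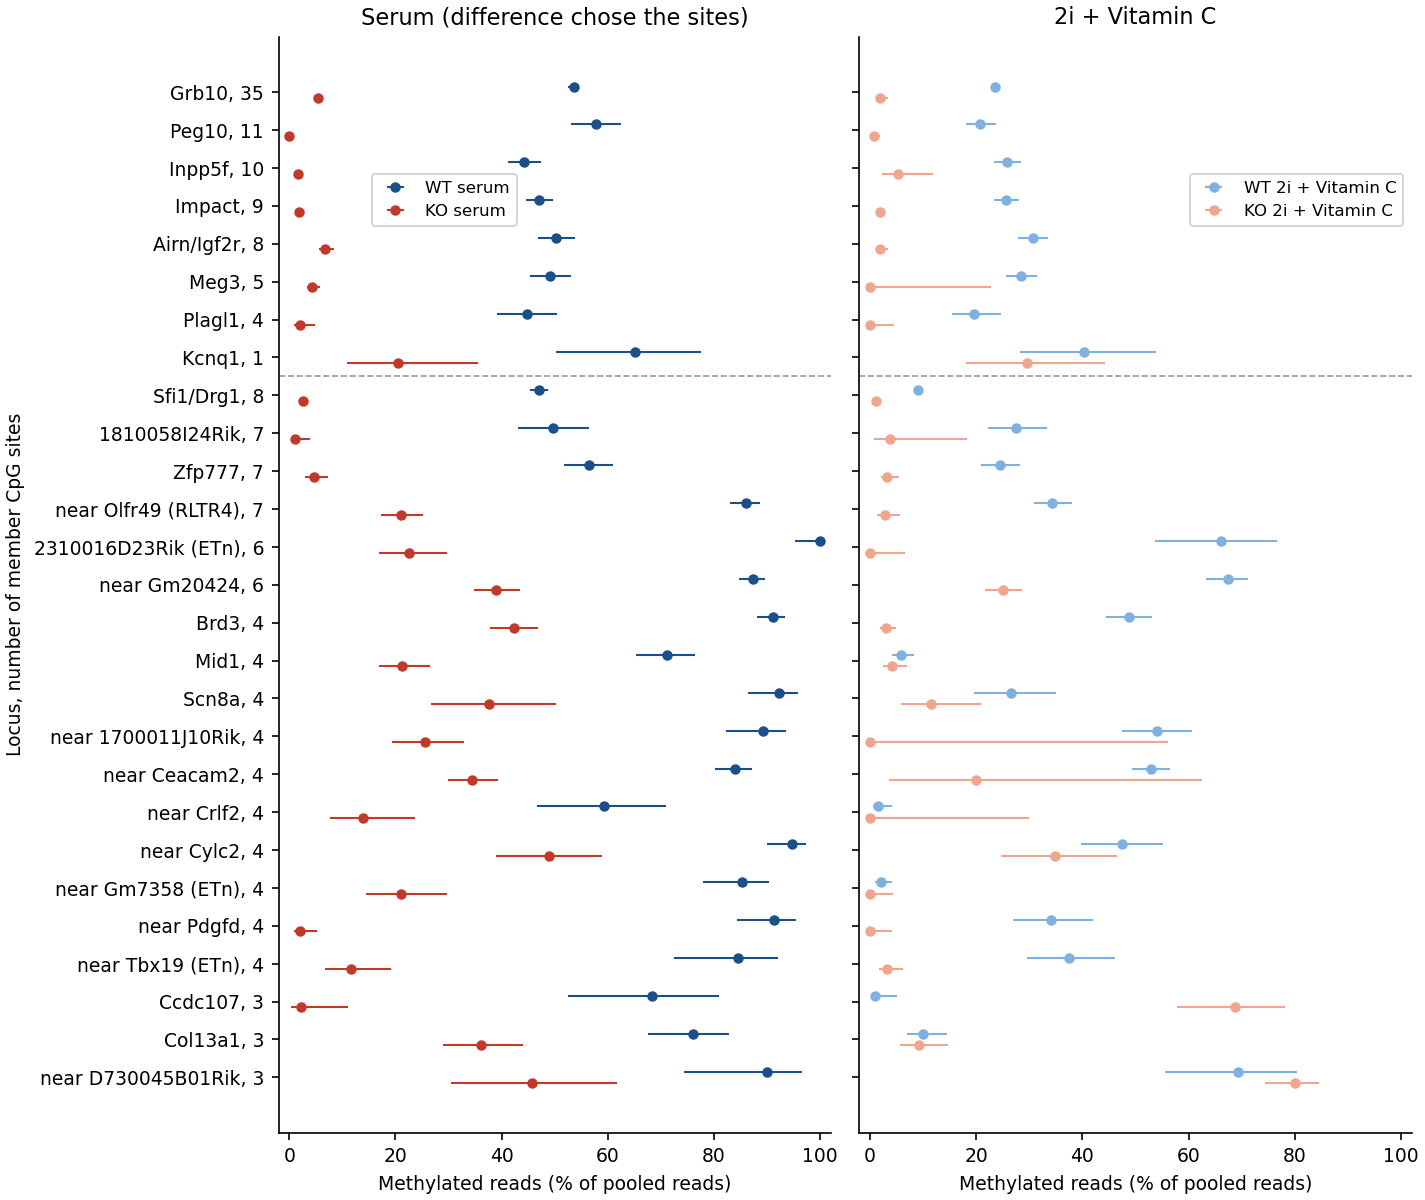
Pooled methylation (% of reads over member sites, with 95% Wilson intervals) at 27 loci in serum (left) and 2i + Vitamin C (right), labelled by gene and number of members. Loci above the dashed line are at genes of the imprinted list. In 2i + Vitamin C the KO value was lower at all 7 imprinted-list loci of at least 3 members (Meg3 with 2 or 3 KO reads per site), and higher at Ccdc107 and near D730045B01Rik.

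Promoters and exons outside the imprinted list also held loci that were partly methylated in WT serum. Low KO serum values at such loci follow from the rule, so nothing is read from their resemblance to the imprinted loci. At a start of Sfi1, which encodes a centrosome protein, inside the annotated span of the GTPase gene Drg1, chr11:3093155-3093631, 8 of 30 tested sites were members, with 47.0% in WT and 2.49% in KO serum. In 2i + Vitamin C this locus was already low in WT, 8.97% against 1.07% in KO cells. In a coding exon of Zfp777, which encodes a zinc finger protein, 7 of 9 tested sites (chr6:47974815-47975326) went from 56.4% to 4.75% in serum and stood at 24.4% of 533 and 3.28% of 427 reads in 2i + Vitamin C (adjusted p = 9.29e-22, Fisher's exact test). The promoter of 1810058I24Rik (chr6:35202749-35202831, 7 members) went from 49.8% to 1.10% in serum and stood at 27.4% in WT 2i + Vitamin C, where KO cells had at most 5 reads at any site and no call is made. Glrx, a glutaredoxin gene, had 3 promoter members at 54.2% and 4.71% in serum, and Traip, a ubiquitin ligase gene, 3 members upstream of its start at 64.0% and 2.00%. Both were low in 2i + Vitamin C, with 3.72% and 0% at Glrx and 7.53% and 0% at Traip (adjusted p = 1.0 and 0.0029, Fisher's exact test, and 0.0655 at Traip with its best covered member alone).

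Repeated sequence was common among the rest. The 121 bp around 106 members (25.1%) matched over 10 places in mm9, compared with 9.1% of every 200th tested site, and 14 of the 39 loci of at least 3 members had a median above 10 copies. ETn elements, counted with 500 bp on either side of the study's capture probes, had 26 members at 8 loci. Counted the same way, RLTR4 elements had 9 members at 2 loci. Windows of over 10 copies surrounded 24 of the 26 ETn members, so some may lie beside an element. The share of all tested sites in these elements was not counted, so nothing is read from these counts. A target sequence of a Chr4-cl KRAB zinc finger protein lay within 2000 bp of 27 members (6.4%) and 0.491% of all tested sites. For 16 of these it was the MMETn sequence assigned to Rex2 and for 8 that assigned to Gm13051. The shares for copies and target sequences were set beside all tested sites, most of them under 40% in WT serum and unable to be members. Shares among the sites at least 40% methylated in WT serum were not counted. Reads from such copies may map to more than one insertion, and whether this affected the values was not tested.

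The ETn insertion in an intron of 2310016D23Rik, chr1:60848272-60848346, had the greatest loss in KO 2i + Vitamin C among the loci of at least 3 members covered in all libraries. Its 6 members had 100% of 76 reads in WT serum and 22.6% of 159 in KO serum, then 66.1% of 62 reads in WT and 0% of 55 in KO 2i + Vitamin C (adjusted p = 7.86e-16, Fisher's exact test). An ETn insertion 12318 bp upstream of Tbx19, a T-box factor gene, had 84.6% and 11.5% in serum, and in 2i + Vitamin C 37.5% and 3.24% at 4 members (adjusted p = 1.52e-17, Fisher's exact test). At another ETn copy the 2i + Vitamin C values were low in both genotypes: the copy at chr17:14231822-14231865 went from 85.2% to 21.1% in serum but was at 2.05% and 0% in 2i + Vitamin C (adjusted p = 0.406, Fisher's exact test). The RLTR4 locus chr14:54916960-54917131, 14445 bp upstream of the olfactory receptor gene Olfr49, had 86.1% and 21.0% in serum, and in 2i + Vitamin C 34.3% and 2.82% (adjusted p = 2.11e-27, Fisher's exact test). Here too a read is counted at each site it covers. With the best covered member alone, adjusted p was 0.000942 in 2310016D23Rik (12 WT and 11 KO reads, Fisher's exact test). By the same test it was 0.000267 near Tbx19 and 0.000526 upstream of Olfr49, and the chr17 copy again did not pass.

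At 3 of the repeated loci not assigned to either element, named for their number of members or their loss, KO values were below WT values in both media. In serum the rule set this direction. Repeated loci in Col13a1 and near Cylc2 and D730045B01Rik, with smaller differences or the other direction in 2i + Vitamin C, are given below. At 4 members in an intron of Brd3, a bromodomain gene (chr2:27351140-27351539), methylation was 91.1% and 42.3% in serum, and in 2i + Vitamin C 48.8% and 2.99%, a difference of -45.8 points (adjusted p = 2.14e-67, Fisher's exact test). At 6 members of chr19:45265929-45266498 it was 87.3% and 39.0%, then 67.4% and 25% (adjusted p = 1.56e-46, Fisher's exact test). At 4 members of chr9:6059959-6060063, whose nearest gene was the growth factor gene Pdgfd 108601 bp away, it was 91.3% and 2.09%, then 34.0% and 0% (adjusted p = 3.92e-12, Fisher's exact test). Repeated loci did not all follow this order in 2i + Vitamin C: at a single member in an intron of Itgbl1, an integrin-like gene, chosen after its values were seen, WT was at 12% of 485 reads and KO at 33.3% of 81.

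Most of the further loci had high WT levels in serum. In Scn8a, a sodium channel gene, 4 members at an exon and its intron went from 92.3% to 37.7% in serum and stood at 26.6% and 11.4% in 2i + Vitamin C (adjusted p = 0.0257, Fisher's exact test). In an exon of Mid1, a ubiquitin ligase gene on the X chromosome, 4 of 15 tested sites went from 71.2% to 21.3% in serum, while 2i + Vitamin C left 5.83% and 4.10% (difference -1.72 points, interval -4.63 to 1.55). A Col13a1 intron, with a median of 11 copies, went from 76.1% to 36.1% and stood at 10% and 9.26% (interval of the difference -6.42 to 5.52). At the loci near Ceacam2, 1700011J10Rik and Crlf2 the KO 2i + Vitamin C library had 5, 3 and 9 reads, and no test was made. The members near Crlf2 were only partly methylated in WT serum, at 52.2% to 75%. They were at 5.88% to 29.4% in KO serum and 0% to 3.95% in WT 2i + Vitamin C. Near Cylc2, where the windows of members matched 5 to 112 places in mm9, the values were 94.8% and 48.9% in serum. In 2i + Vitamin C they were 47.4% and 34.8% (adjusted p = 0.106, Fisher's exact test).

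The 2i + Vitamin C libraries did not enter the selection, so the members' values there are an independent measurement of the same 2 lines. Of the 422 members, 252 had at least 10 reads in both of these libraries, and 163 of the others had fewer than 10 in KO cells, 58 of them none. Mean methylation of the 252 sites was 25% in WT and 10.8% in KO 2i + Vitamin C, a mean difference of -14.2 points (SD over sites 21.3). It was -8.02 points with each locus counted once, -7.62 with members chosen at 30 points in serum and -7.93 without the imprinted list, ETn and RLTR4 (the last chosen after seeing the data). Over all 458443 sites tested the means were 14.3% and 12.6% (difference -1.73), and over the 120374 sites at least 40% methylated in WT serum they were 40.6% and 36.9% (difference -3.68). KO values were below WT values at 197 members (78.2%), above at 51 and equal at 4, against 56.0% below over all sites and 62.9% over the sites at least 40% methylated in WT serum.

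Site by site, 58 of the 252 members (23%) were called lower in KO 2i + Vitamin C and 4 were called higher. A call needed an adjusted p below 0.05 (Fisher's exact test with the Benjamini-Hochberg adjustment over all 458443 sites) and a difference of at least 20 points. Across all sites 0.361% were called lower, and across the sites at least 40% methylated in WT serum 0.918%. Each test compares 2 libraries, not the conditions. All 58 calls were among the 139 members above 20% in WT 2i + Vitamin C, of which 130 had a lower KO value, and 0 were among the 113 at 20% or less, where a loss of over 20 points was not possible.

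WT cells had less methylation in 2i + Vitamin C than in serum at 251 of the 252 members, with a median change of -50 points. The same held for 99.1% of the 120374 sites at least 40% methylated in WT serum, with a median change of -42.9 points. KO cells changed by a median of -9.09 points at the members, from serum values that the rule had chosen to be low. Over the 120374 sites the median KO change was -52.0 points. Of the 252 members, 138 were at most 5% in KO 2i + Vitamin C, compared with 36 in WT. The share of the 120374 sites at most 5% in each library was not counted.

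**Figure D4:**
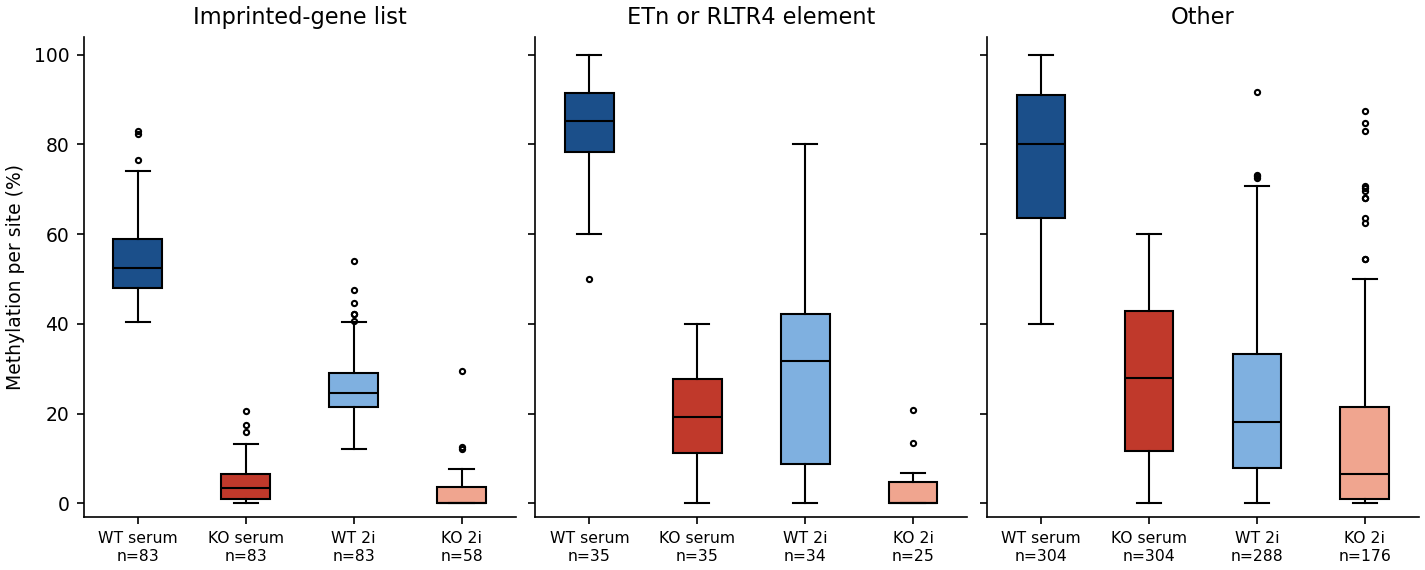
Methylation per member site (%) in the 4 libraries for sites at imprinted-list genes (83), in ETn or RLTR4 elements (35) and elsewhere (304), using sites with at least 10 reads in the library shown. Boxes span the quartiles with the median, whiskers reach 1.5 times the box length, and points are sites beyond. Imprinted-list sites start near 52.4% in WT serum and lie near 0 in both KO libraries.

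By kind of site, values in 2i + Vitamin C were as follows, with no test between the kinds. At the imprinted list all 58 covered members were lower in KO cells, with means of 26.6% and 2.5%, and 25 were called lower (43.1%). At ETn elements 16 of 17 covered members were lower (means 39.4% and 3.15%, 7 called), and at RLTR4 elements 8 of 8 (30.3% and 2.95%, 6 called). The 169 covered members outside these had means of 22.7% and 14.7%, with 115 lower, 51 higher, 20 called lower and 4 called higher. Sites of a locus share reads and are not independent. Of the covered imprinted-list members, 26 were at Grb10. Of the covered RLTR4 members, 6 were at the locus upstream of Olfr49, which held every RLTR4 call. Of the covered ETn members, 5 were in 2310016D23Rik, 4 near Tbx19 and 4 at chr17:14231822-14231865. The members of loci with at least 3 members had a mean difference of -20.5 points, with 128 of 139 lower, and the 83 covered single-member sites -4.36 points, with 44 lower and 36 higher. Depth moved with this split: the WT 2i + Vitamin C medians were 84 and 38 reads.

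**Figure D5:**
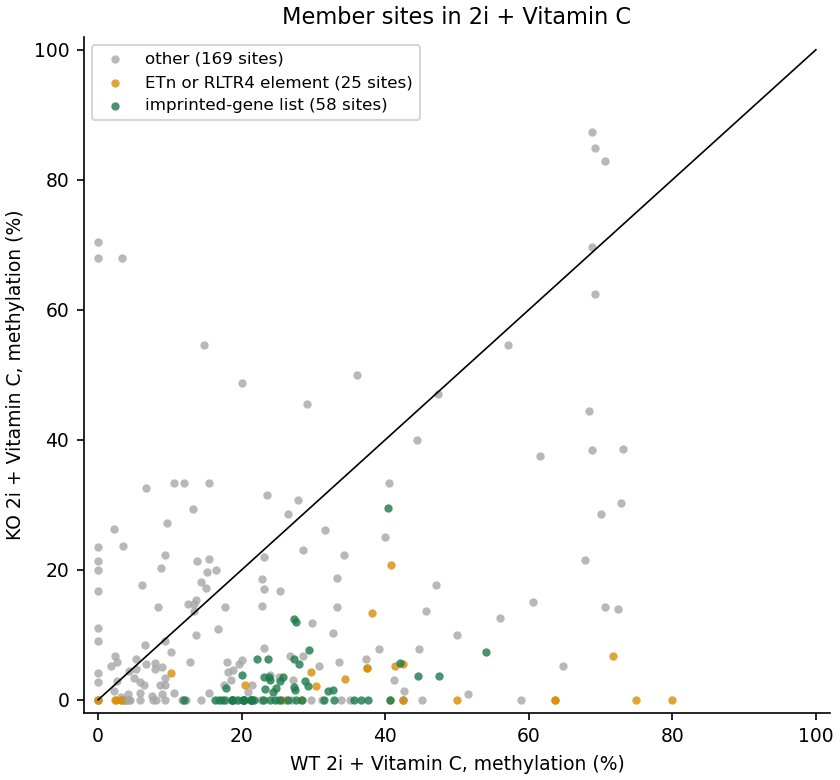
KO against WT methylation (%) in 2i + Vitamin C for the 252 members with at least 10 reads in both libraries, by kind of site, with the line of equal values. The 58 imprinted-list sites all lie below the line, and 51 other sites lie above it.

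Of the 39 loci of at least 3 members, 31 had at least 10 pooled reads in both 2i + Vitamin C libraries. On the pooled reads 27 of the 31 were lower in KO cells, 22 at an adjusted p under 0.05 and 14 of these by at least 20 points, and 1 was higher at that level (Fisher's exact test, Benjamini-Hochberg adjustment over the 31 loci). With 1 site per locus, an alternative chosen after seeing the data that counts no read more than once, 28 loci could be tested, 16 were lower and 1 was higher at that level. Inpp5f, Traip and 2 further loci no longer passed, and Meg3 and 1810058I24Rik had too few KO reads to test. The 22 loci lower on pooled reads include these last 2, where the few KO reads per site allow no call. Meg3 (pooled adjusted p = 0.035, Fisher's exact test) is also among the 14. Pooled counts over comparable windows of other sites were not made, so the locus counts have no background share beside them. The locus that was higher was at the start of Ccdc107, chr4:43505768-43505788, which encodes a coiled-coil protein. Its 3 members went from 68.4% of 38 reads to 2.13% of 47 in serum, whereas 2i + Vitamin C had 0.926% of 108 reads in WT and 68.8% of 77 in KO cells (adjusted p = 9.7e-26, Fisher's exact test).

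Sequence around the members was compared with that of other tested sites. The 301 bp around a member held a median of 12 CpGs, compared with 18 over all tested sites and 8 over the sites at least 40% methylated in WT serum, and 23 at the imprinted list. The hexamer bound by ZFP57, TGCCGC on either strand, was in the 301 bp windows of 89 members (21.1%), of 20.8% of all tested sites and of 7.32% of the sites at least 40% methylated in WT serum. At the imprinted list 41 of 83 windows held it (49.4%): 10 of 10 at Inpp5f, 9 of 9 at Impact, 4 of 4 at Plagl1, 6 of 8 at Airn, 4 of 11 at Peg10, 2 of 5 at Meg3 and 6 of 35 at Grb10. Elsewhere 48 of 339 windows held it (14.2%), 4 of them at Zfp777. Windows of neighbouring members overlap, and a match describes the letters and not binding. The hexamer itself contains a CpG, and windows at the imprinted list had more CpGs than those set beside them. Shares at equal CpG density, or at imprinted-list sites that were not members, were not counted, so no enrichment is read from these shares.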

How the data were processed

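RRBS-seq covered 2 genotypes of ES cells (WT and Chr4-cl KO) in each of the media, with 1 library per group. Genomic DNA was cut with MspI and bisulfite-converted, and reads were trimmed with Trim Galore and mapped to mm9 with Bismark (submitters' processing notes; versions not given in the sources used here). The authors merged both strands of each CpG dyad and deposited its read count, methylated read count and methylated fraction. Read counts over CpG sites were 42684672 to 90649194 per library, and 591877 to 816807 sites had at least 10 reads. The WT serum and KO 2i + Vitamin C files each held 2 tables joined end to end, and positions listed more than once in a file (332 and 830 rows) were left out of it.

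Members and lists were chosen with earlier results of these data known. The fraction was recomputed from the deposited counts. Fisher's exact test was run on methylated and unmethylated reads at every site in 2i + Vitamin C, adjusted by the Benjamini-Hochberg method over all sites, and was tested on simulated data. Wilson intervals are at 95%. Serum values were not tested, because they chose the sites. Loci named were those with at least 4 members (the 15 with most members, ties kept), every locus at a gene of the imprinted list, and the 5 with the largest and the 5 with the smallest loss in 2i + Vitamin C, taken from loci with at least 3 members covered in all libraries, and Glrx, Traip, Itgbl1 and the imprinted genes without members were added after their values were seen. ETn and RLTR4 elements were placed from the study's capture probes, and sites within 500 bp of a probe were included. Copies were counted with blastn 2.17.0+ (121 bp windows, at least 80% identity and cover), and KRAB zinc finger target sequences were matched at 85% identity. Annotation was GENCODE vM1 on mm9. Analyses used Python 3.11.15, pandas 2.3.3 and pysam 0.24.0. Alternatives varied the read minimum, the difference, the joining distance and the members included.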

Additional observations from a re-analysis of the deposited data

Results flagged for a closer look

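At 2 of the named loci the difference between KO and WT libraries had opposite signs in the media, and the difference between media was not tested. At the Ccdc107 start it was 67.9 points higher in KO 2i + Vitamin C (interval 56.1 to 77.2), after a lower value in serum at all 3 members. At chr5:152273628-152273660, 101897 bp from the start of D730045B01Rik and with a median of 2330 copies in mm9, it was 10.6 points higher in KO 2i + Vitamin C (interval -1.78 to 25.3, adjusted p = 0.158, Fisher's exact test over 31 loci), on 30 to 240 reads per library. The high libraries at Ccdc107, WT serum and KO 2i + Vitamin C, are the 2 whose files hold 2 joined tables, and the part of this in the result was not tested.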

How the results depend on the processing

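The number of members followed the limits of the rule: 1189 sites at 30 points, 176 at 50 points, 1886 at 5 reads and 205 at 20 reads. Summing repeated positions, leaving out the most covered 0.1% of sites, autosomes alone and the first table of each file alone gave 424, 422, 408 and 421 members. The loci numbered 230 with joining up to 300 bp and 222 up to 5000 bp. The mean difference in 2i + Vitamin C stayed negative under every alternative run: -13.5 points at 5 reads, -15.7 at 20 reads, -7.62 with members at 30 points, -18.2 at 50 points, -8.02 with each locus counted once, -11.6 with reads pooled, -11.2 without the imprinted list, -20.5 for loci of at least 3 members and, chosen after seeing the data, -11.3 without windows of over 10 copies and -7.93 without the imprinted list, ETn and RLTR4. On autosomes it was -14.6 and without the most covered sites -14.2. Members called lower were 103 by a difference of at least 20 points alone and 27 by at least 40 points alone, and 56 to 67 under the other 5 settings. Of the loci of at least 3 members, 22 were lower on pooled reads, with Meg3 and 1810058I24Rik, where no call is made, among them. With 1 site per locus 16 were lower. The cause of these shifts was not tested. Masking of repeats was not run, because the reference used here is not soft-masked. No paired analysis was possible because each group has 1 library.

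With 1 library per group, nothing here shows how far the values would vary between clones or cultures. The median KO depth in 2i + Vitamin C was 28 reads at the covered members, and 163 members had under 10 reads there, so single-site losses were not detectable there at this depth.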
